A study of Mus musculus with 24 samples.

Results

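The dipeptidyl peptidases, their close relatives and the incretin receptors were followed across 6 groups of mouse pancreas. All array probes whose platform annotation gave 1 of 10 gene symbols were taken. The genes were Dpp4, Fap, Dpp8, Dpp9, Prep, Dpp3, Dpp7, Mme, Glp1r and Gipr, and they had 21 of the 45281 probes on the array. Of these, 11 probes of 6 genes were kept for testing, among 15328 kept probes that named 9164 genes. A probe was kept when its signal was detected on at least 4 of the 24 arrays. Detected means a detection p, the deposited measure of standing above negative control beads, under 0.05.

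The tissue came from male C57BL/6J mice, an inbred strain that gains weight on fat-rich food, bought at 3 weeks of age. All mice, controls included, were fed a diet with 60% of energy from fat for 12 weeks and were housed singly. The control group drank water. AFFB was an alcohol-free fermented drink of blackberry and blueberry, giving 8.4 mg of anthocyanins per kg body weight per day. PAE was a phenolic extract of that drink, given so that anthocyanins came to 1.1 (PAE 0.1X), 9 (PAE 1X) or 18.9 (PAE 3X) mg per kg per day. The sample titles call the highest dose 3X and the treatment protocol calls it 2X. The remaining group received sitagliptin, an inhibitor of the enzyme that Dpp4 encodes, at 150 mg per L of drinking water. Each group of 12 mice is represented by 4 arrays. Nothing in the labels ties an array to a mouse of its own. The p-values below therefore speak of the spread among the samples as deposited, part of which could be technical. In whole pancreas, fewer cells of a type and less RNA per cell cannot be told apart.

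Glucagon-like peptide 1, made from the product of Gcg, and the product of Gip are incretins, gut hormones that raise insulin release after a meal through the receptors encoded by Glp1r and Gipr on beta cells. DPP4, a serine peptidase on cell surfaces and in plasma, removes a dipeptide from their amino ends and so inactivates them, and sitagliptin blocks that step. Fap encodes the closest relative of DPP4, known from activated fibroblasts. Dpp8 and Dpp9 encode cytosolic relatives, and Prep an oligopeptidase that cuts after proline inside short peptides. Dpp7 encodes a serine dipeptidyl peptidase of lysosomes and vesicles. Dpp3 encodes a cytosolic zinc peptidase unrelated to DPP4 in fold, which also binds Keap1. Mme encodes neprilysin, a membrane zinc peptidase that degrades many hormones.

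Promoter windows were read to set the members beside each other, and 2 are shown: that of the drug's target and that of the GLP-1 receptor, which was near background. The windows reach from 250 bases before to 50 bases after the annotated start, in RefSeq on build GRCm38.p6. Capitals mark exact matches, on either strand, to a TATA box, a GC box or a CCAAT box. The letters searched for the TATA box were TATAAA. Those of the GC box were GGGCGG, and matches can overlap within a run of them.
Dpp4, chr2:62412182-62412481, minus strand: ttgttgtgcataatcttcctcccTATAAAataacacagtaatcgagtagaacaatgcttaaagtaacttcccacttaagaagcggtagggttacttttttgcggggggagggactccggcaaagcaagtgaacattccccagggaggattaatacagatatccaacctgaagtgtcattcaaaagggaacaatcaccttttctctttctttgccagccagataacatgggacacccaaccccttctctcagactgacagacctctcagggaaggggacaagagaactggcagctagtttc
Glp1r, chr17:30901617-30901916, plus strand: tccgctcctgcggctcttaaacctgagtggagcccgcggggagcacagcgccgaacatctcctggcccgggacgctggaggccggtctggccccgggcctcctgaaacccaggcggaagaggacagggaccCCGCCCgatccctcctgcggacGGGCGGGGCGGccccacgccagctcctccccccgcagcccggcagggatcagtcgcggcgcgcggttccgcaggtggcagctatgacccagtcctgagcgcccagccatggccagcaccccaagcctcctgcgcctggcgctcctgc
The Dpp4 window held 1 TATA box match and none to the other motifs, with a GC content of 45.3% and 4 CpG dinucleotides. The match stands near the beginning of the printed window, away from the annotated start, and whether it acts as a TATA box was not tested. The Glp1r window held 3 GC box matches, with 73.7% GC and 29 CpG. Over 32851 windows of the same length, 13.6% held the TATA box letters, 35.7% those of the GC box and 37.4% those of the CCAAT box, and the median GC content was 52.7%. A window was found for 7 of the 10 genes. The windows of Dpp8, Dpp9, Dpp7 and Mme had between 46% and 73% GC, with 3 windows for Mme. In the RefSeq gene order on mouse chromosome 2, Gcg lies between Dpp4 and Fap, so the substrate's gene and both peptidase genes are direct neighbours among coding genes.

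The arrays detected between 10888 and 14060 probes each, and every array had a median log2 signal of 4.37 after normalization. All 12 acinar markers on the array were kept, as were 7 of 9 beta cell markers, and 1 of 7 T cell markers. The beta cell marker mean, centred on each gene, ran from -0.76 to 1.14 over arrays. On the first principal component, which held 28.4% of the variance, 3 arrays lay far out (scores of 56.1 for PAE 1X 2, 38.8 for AFFB 2 and 33.7 for sitagliptin 3). A set of 5 arrays (PAE 1X 4, PAE 3X 2, PAE 3X 3, water 4 and sitagliptin 4) had the highest mean of clock output genes. For Dpp4 and Dpp3, differences are also given without some of these arrays.

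The members fell into 3 kinds by detection. Dpp8, Dpp9, Prep, Dpp3 and Dpp7 were each detected on 24 of 24 arrays by 1 or 2 probes. Dpp4 was near the limit, with probe 1 detected on 15 arrays and probe 2 on 8. Fap, Mme, Glp1r and Gipr had no kept probe, and neither did the third probes of Dpp8 and Dpp3.

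**Figure D1:**
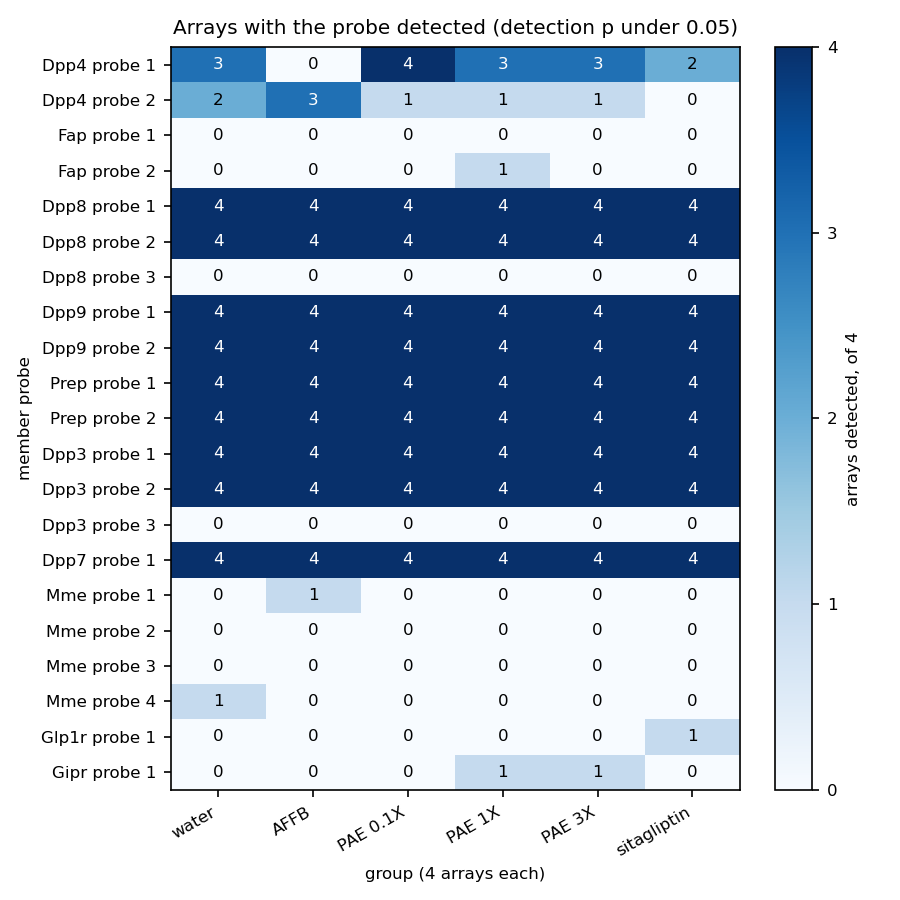
Number of arrays, of 4 per group, on which each of the 21 member probes was detected (rows, probes; columns, groups; colour and digit, arrays detected). The 9 probes of Dpp8, Dpp9, Prep, Dpp3 and Dpp7 detected everywhere stand at 4 in every group, Dpp4 probe 1 runs from 0 in AFFB to 4 in PAE 0.1X, Dpp4 probe 2 from 0 under sitagliptin to 3 in AFFB, and the remaining probes are at 0 or 1.

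Dpp4 signal lay near the detection limit in this tissue and did not pass the test in any comparison. On probe 1 the normalized log2 signal was 4.63, 4.97, 5.49 and 4.89 on the 4 water arrays (4.99 ± 0.36, SD, n = 4). In the sitagliptin group it was 5.02, 4.61, 4.40 and 5.14 (4.79 ± 0.35). The groups overlap, and 2 of 4 sitagliptin arrays lie below the water mean. Sitagliptin differed from water by -0.20 log2 units (SE 0.19, 95% interval -0.59 to 0.19), with an adjusted p of 1.00 in limma. Probe 2 gave -0.07 (SE 0.13, 95% interval -0.34 to 0.20), and none of the 4 sitagliptin arrays detected it. Its fold therefore has no usable bound. Without sitagliptin 3, an array far out on the first component, the probe 1 difference was -0.07. Without water 3 it was -0.04, and without the 5 arrays of high clock output -0.36.

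In the PAE groups the Dpp4 probe 1 values overlapped those of water throughout. They were 4.87, 4.71, 5.11 and 4.92 in PAE 0.1X (4.90 ± 0.16), all 4 detected. They were 4.92, 4.53, 5.27 and 5.01 in PAE 1X (4.93 ± 0.30), and 5.02, 4.69, 5.10 and 4.53 in PAE 3X (4.83 ± 0.27). The differences from water were -0.09, -0.06 and -0.16 in order of dose, each with an SE of 0.19. Without water 3 they were 0.07, 0.10 and 0.00, so the direction for the lower doses turned.

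The AFFB group stood lowest on Dpp4 probe 1, at 4.39, 4.62, 4.55 and 4.46 (4.51 ± 0.10), and none of its arrays detected the probe. All 4 values lie below the lowest water array, at 4.63, by as little as 0.01. The measured difference was -0.49 (SE 0.19, 95% interval -0.87 to -0.10), with an unadjusted p of 0.0161 and an adjusted p of 0.919 in limma. Because the probe was not detected in AFFB, its level there is only bounded. On group means in the main setting, the bound put water at least 1.23-fold higher, with no allowance for the spread among arrays. For that bound each AFFB array was set to the dimmest detected signal on it, or to the probe itself where brighter. The water mean included water 1, which did not detect the probe either. Over the settings run, the measured difference ranged from -0.61 to -0.14. Without water 3, the highest array, the difference was -0.32. Probe 2 went the other way, at 4.88, 4.60, 4.69 and 4.66 in AFFB (4.71 ± 0.12) against 4.77, 4.69, 4.62 and 4.26 in water (4.59 ± 0.22). Its difference was 0.12 (SE 0.13, 95% interval -0.15 to 0.39), and it was detected on 3 AFFB arrays, more than in any other group. Across the 24 arrays the 2 Dpp4 probes had a Pearson r of -0.06 (permutation p = 0.764). The annotation gives the 2 probes different source sequences, so they need not read the same transcripts. Probe 2 also varied little, with an SD within groups of 0.16 that 8.09% of the kept probes undercut.

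**Figure D2:**
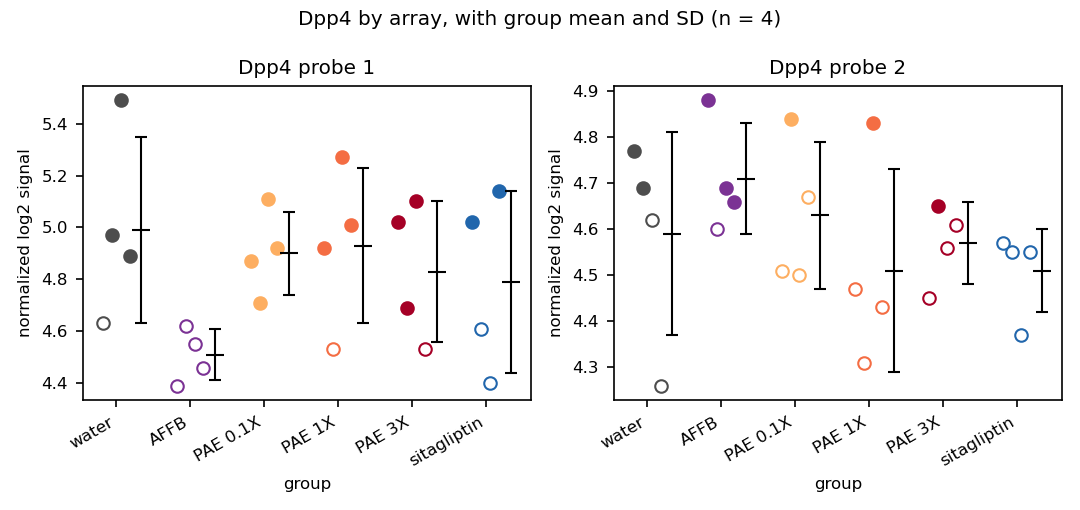
Normalized log2 signal of the 2 Dpp4 probes on each array (points), by group, with the group mean and SD (bars, n = 4); filled points were detected, open points were not, and the vertical axes do not start at 0. AFFB lies lowest on probe 1 (4.39 to 4.62) and highest on probe 2 by mean (4.71).

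The order of the groups on Dpp4 probe 1 was water, PAE 1X, PAE 0.1X, PAE 3X, sitagliptin and AFFB. Neighbours in that order differed by 0.03 to 0.28, and each gap was smaller than the larger SD of the pair. On probe 2 the order began with AFFB and ended with PAE 1X and sitagliptin, both at 4.51.

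DPP4 is known from the surfaces of many epithelia, and Dpp4 was set against the markers of duct cells (Krt19, Krt7, Krt18, Sox9 and Muc1) and of acinar cells over arrays. Dpp4 probe 1 was higher on arrays with a higher duct marker mean (Pearson r = 0.51, permutation p = 0.0113, adjusted over 2 relations 0.0227; Spearman rho = 0.55, p = 0.00632, adjusted 0.0126; n = 24). After subtracting group means r was 0.52. Probe 2 was not set against these markers. Probe 1 was detected on 15 of the 24 arrays and on none of AFFB, so part of the relation runs over readings near background. Without the 2 arrays farthest from the median of the duct mean, r was 0.43 with an adjusted p of 0.0931, so the relation at this threshold rests on those arrays. The duct mean was 0.14 in water (range 0.04 to 0.28) and -0.11 in AFFB (range -0.25 to 0.09). The order of the other groups differed from that of Dpp4 probe 1, since PAE 1X, with the second highest Dpp4 mean, was also at -0.11, and sitagliptin, with the second lowest, was at 0.12. Other marker means were lower in AFFB than in water as well, at -0.14 against 0.23 for macrophages, -0.18 against 0.11 for endothelium and -0.09 against 0.12 for stellate cells and fibroblasts. The single kept T cell marker went the other way, at 0.28 against -0.14, as did the erythroid mean, at 0.10 against -0.33. The acinar mean was 0.02 in both. The part of these cell types in the Dpp4 difference was not tested. With the acinar mean r was 0.17 (permutation p = 0.428) and rho 0.11 (p = 0.592), and r was 0.07 without the 2 farthest arrays. The other 6 relations planned, for Glp1r, Gipr, Fap and Mme and for Dpp4 with T cells, had no kept member probe or fewer than 2 kept markers.

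**Figure D3:**
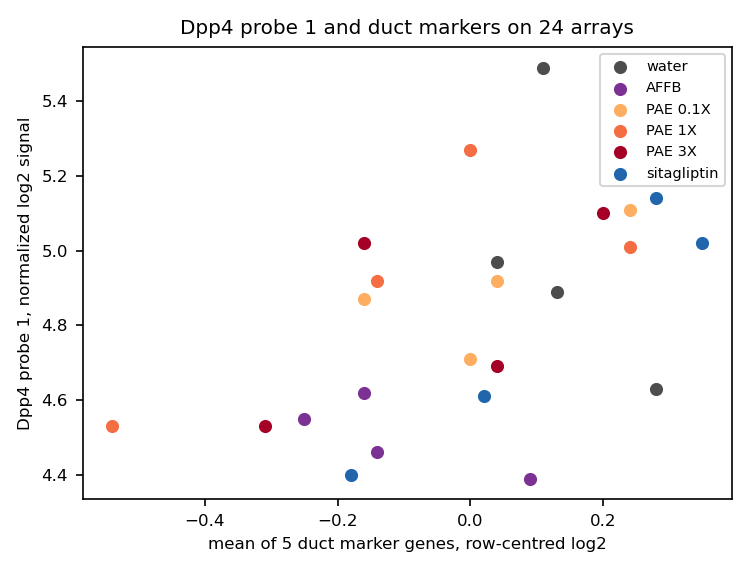
Dpp4 probe 1 (vertical axis, normalized log2 signal) against the mean of 5 duct marker genes, each centred on its own mean (horizontal axis, log2), with 1 point per array and colours for groups. The points rise from left to right (r = 0.51, n = 24), and the 4 AFFB arrays lie between -0.25 and 0.09 on the horizontal axis.

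The genes most like Dpp4 probe 1 over the 24 arrays, after subtracting group means, were Sema5a, a semaphorin (r = 0.77), Gprc5b, an orphan receptor (0.75), Mrpl44, of the mitochondrial ribosome (0.75), Nme7 (0.71) and the growth factor gene Fgf1 (0.70). They were taken from the top of 9163 genes as a description. Gprc5b was detected on 8 arrays and Fgf1 on 9, so both are dim like Dpp4.

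Fap stayed at background in every group. Its probe 1 was detected on no array (means 4.27 to 4.42), and probe 2 on 1 array, PAE 1X 3, at 4.56.

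Dpp8 and Dpp9 were detected throughout. Dpp8 probe 2 read 5.94, 5.81, 5.78 and 5.58 in water (5.78 ± 0.15) and 6.28, 5.95, 6.28 and 6.27 in PAE 3X (6.20 ± 0.16). In PAE 1X it read 5.95, 6.31, 6.26 and 6.04 (6.14 ± 0.17). All 8 of these treated arrays lie above all water arrays, by as little as 0.01. The differences were 0.42 for PAE 3X (SE 0.18, 95% interval 0.05 to 0.78, unadjusted p = 0.0277, adjusted p = 0.936 in limma) and 0.36 for PAE 1X (adjusted p = 0.776). Of the 5 arrays highest on this probe, 3 were among the 5 highest on the first component. Over the settings run, the difference ranged from 0.18 to 0.66 for PAE 3X and from 0.15 to 0.55 for PAE 1X. Sitagliptin arrays spread from 5.16 to 6.28 (5.85 ± 0.52), around the water arrays on both sides. Dpp8 probe 1 gave 0.08 for PAE 3X (95% interval -0.21 to 0.37) and 0.21 for PAE 1X (95% interval -0.08 to 0.50). Over the 24 arrays the 2 Dpp8 probes had r = 0.26 (permutation p = 0.217), and the annotation names a source sequence for probe 2 but not for probe 1.

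Dpp9 differed from water by -0.19 to 0.10 over its 2 probes and 5 treatments. Its probe 1 spread most in the sitagliptin group, from 5.94 to 7.07 (6.48 ± 0.48), with water between 6.29 and 6.55 inside that span. Probe 2 was at 6.26 ± 0.19 in water and 6.25 ± 0.36 under sitagliptin.

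Prep probe 1 was at 5.97 ± 0.10 in water and 5.92 ± 0.36 under sitagliptin, and probe 2 at 5.56 ± 0.35 and 5.66 ± 0.39. Over both probes and all treatments Prep differed from water by at most 0.20 in either direction. Its 2 probes had r = 0.32 over arrays (permutation p = 0.127).

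Dpp3 gave the smallest p-values of the set, and its probes moved together, yet it did not pass in any comparison. On probe 2 the water arrays read 7.27, 7.30, 7.10 and 7.10 (7.19 ± 0.11). PAE 1X read 7.84, 7.88, 7.63 and 7.44 (7.70 ± 0.20), and all 4 of its arrays lie above all 4 water arrays. The difference was 0.50 (SE 0.15, 95% interval 0.19 to 0.82, unadjusted p = 0.00306, adjusted p = 0.457 in limma). Under sitagliptin the values were 7.38, 7.45, 7.74 and 7.35 (7.48 ± 0.18), also above all water arrays. That difference was 0.29 (SE 0.15, 95% interval -0.03 to 0.60, unadjusted p = 0.0740, adjusted p = 1.00).

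AFFB also lay wholly above water on Dpp3 probe 2, at 7.50, 7.69, 7.40 and 7.54 (7.53 ± 0.12), a difference of 0.34 (unadjusted p = 0.0366, adjusted p = 0.919). PAE 3X read 7.70, 7.47, 7.30 and 7.85 (7.58 ± 0.24), a difference of 0.39 (unadjusted p = 0.0186, adjusted p = 0.891), and its lowest array met the highest of water. PAE 0.1X read 7.09, 7.55, 7.32 and 6.80 (7.19 ± 0.32), level with water on average and spread on both sides of it. These 5 comparisons share the same 4 water arrays. The order was PAE 1X, PAE 3X, AFFB, sitagliptin, water and PAE 0.1X, and the only gap above both SDs of its pair was the 0.29 between sitagliptin and water.

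Probe 1 of Dpp3 read 9.11, 8.83, 8.99 and 8.89 in water (8.96 ± 0.12) and 9.02, 9.22, 9.72 and 9.19 under sitagliptin (9.29 ± 0.30). Its values were 9.17, 9.91, 9.26 and 9.20 in AFFB (9.38 ± 0.35) and 9.22, 9.36, 9.23 and 8.66 in PAE 0.1X (9.12 ± 0.31). PAE 1X read 9.60, 9.90, 9.13 and 9.05 (9.42 ± 0.40), and PAE 3X 9.67, 9.06, 9.10 and 9.70 (9.38 ± 0.35). Only AFFB cleared the water arrays in full. The differences were 0.33 for sitagliptin, 0.43 for AFFB, 0.16, 0.47 and 0.43 for rising PAE doses, each with an SE of 0.21 and an adjusted p of 0.745 or more. Over arrays the 2 probes had r = 0.84 (permutation p = 1.00e-05, the smallest that the resamples can give; adjusted over 5 probe pairs 5.00e-05; rho = 0.76) and r = 0.83 without the 2 farthest arrays. The probe pairs were related after the data were seen.

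The highest Dpp3 values sat on the arrays that stood apart. The 5 arrays highest on Dpp3 probe 1 were the 5 highest on the first component, and 4 of the 5 highest on probe 2 were among them. Without the 3 far arrays the probe 1 differences were 0.26 for AFFB, 0.19 for sitagliptin and 0.31 for PAE 1X, and those of probe 2 were 0.28, 0.20 and 0.44. On those arrays the mean of 5 kept stellate and fibroblast markers was -0.25 (AFFB 2), -0.21 (sitagliptin 3) and -0.59 (PAE 1X 2), the lowest of each group. The endothelial mean was also the lowest of each group there, at -0.52, -0.53 and -0.60 in the same order, and the single kept T cell marker, Cd3e, was the highest, at 0.76, 0.87 and 0.68. The macrophage mean was -0.64, -0.25 and -0.61, the lowest of the AFFB and PAE 1X groups. The part of these cell types in the Dpp3 differences was not tested. Each of these groups holds 1 far array, so leaving out that array alone is no further check. It gave the same probe 1 differences, 0.26 without AFFB 2, 0.31 without PAE 1X 2 and 0.19 without sitagliptin 3. Without the 5 arrays of high clock output the PAE 3X differences were 0.70 and 0.56. That setting leaves only PAE 3X 1 and PAE 3X 4 in the group, at 9.67 and 9.70 on probe 1. Both are among the 5 arrays highest on the first component. With arrays scaled by their median in place of quantile normalization, the PAE 1X differences were 0.81 and 0.79 and those of PAE 3X 0.80 and 0.72, while the median over all kept probes moved to 0.13 and 0.16. The adjusted p stayed at 0.301 or more in each of these 4 values.

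**Figure D4:**
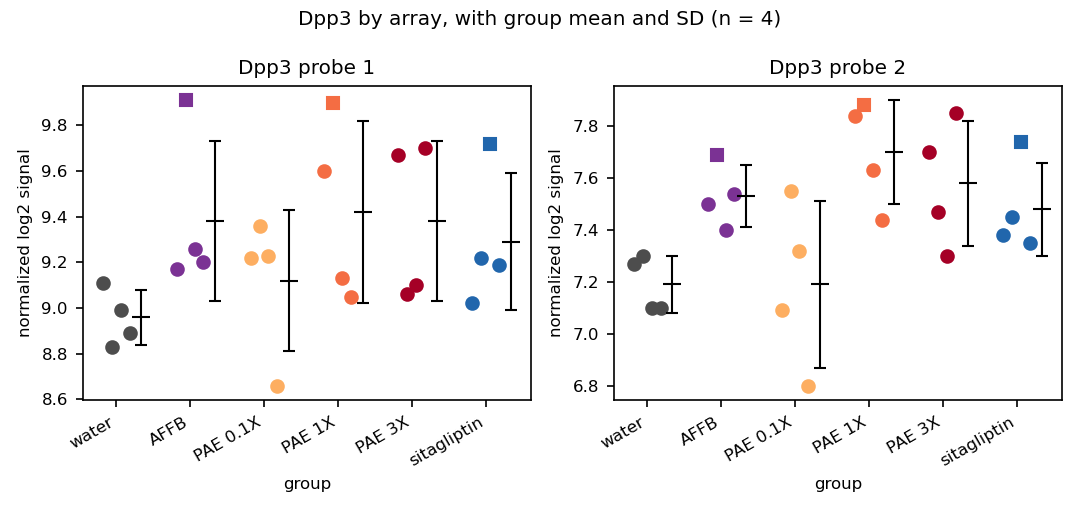
Normalized log2 signal of the 2 Dpp3 probes on each array (points), by group, with the group mean and SD (bars, n = 4); squares mark the 3 arrays far out on the first principal component, and the vertical axes do not start at 0. Water lies between 8.83 and 9.11 on probe 1 and between 7.10 and 7.30 on probe 2, and squares are the highest points of their groups.

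Among the 11 tested probes, that of Dpp7 had the smallest SD within groups. It ran from 8.38 to 8.78 over all 24 arrays, and its SD within groups, 0.12, was undercut by 0.692% of the kept probes. Sitagliptin and water both averaged 8.56 (SD 0.13 and 0.07), and each treated group lay within 0.05 of water.

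Mme, Glp1r and Gipr stayed near background. The 4 Mme probes were detected on 2 arrays between them, AFFB 3 for probe 1 at 4.67 and water 2 for probe 4 at 4.72. The single Glp1r probe read 4.38, 4.36, 4.43 and 4.42 in water (4.40 ± 0.03) and 4.71, 4.59, 4.34 and 4.32 under sitagliptin (4.49 ± 0.19). It was detected once, on sitagliptin 1. Over the other groups its means ran from 4.35 to 4.41. The Gipr probe averaged 4.53 ± 0.20 in water and 4.44 ± 0.08 under sitagliptin, with detection on PAE 1X 4 at 4.73 and PAE 3X 3 at 4.78. Over the 10 probes that were not kept, the third probes of Dpp8 and Dpp3 included, 6 of 240 readings were detected, or 2.50%. The detection threshold gives 5% by its construction for background beads. The filter itself removed probes with more detections, so the lower share cannot be read as a result. The 6 detected readings came from all groups but PAE 0.1X, at 1 or 2 of 40 readings each. A difference in these genes was not detectable at this signal, which is not evidence that the receptors were absent from islets, a small share of the organ.

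Across the 11 tested probes none passed at an adjusted p under 0.05 in any of 9 comparisons. For sitagliptin against water, 0% of all 15328 probes passed, and no member had an unadjusted p under 0.05 where 2.74% of all probes did. The groups did not overlap for 1 of 11 member probes, Dpp3 probe 2, against 2.17% of all probes. The members' median difference was 0.04 beside 0.01 over all probes, and the differences ran from -0.20 to 0.33.

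For AFFB, 0% of all probes passed, 2 of 11 members had an unadjusted p under 0.05 (Dpp4 probe 1 and Dpp3 probe 2) against 5.03%, and 3 did not overlap with water (those 2 and Dpp3 probe 1) against 3.60%. For PAE 0.1X, 0% passed, no member had an unadjusted p under 0.05 against 3.78%, and none was free of overlap against 2.99%. For PAE 1X, 0.00652% of all probes passed. There 2 members, both Dpp3 probes, had an unadjusted p under 0.05 against 6.50%, and 2, Dpp3 probe 2 and Dpp8 probe 2, did not overlap against 3.89%. For PAE 3X, 0.0457% passed. There 2 members, Dpp3 probe 2 and Dpp8 probe 2, had an unadjusted p under 0.05 against 5.03%, and 1, Dpp8 probe 2, did not overlap against 4.68%. Members are counted as probes, here and below. The 2 Dpp3 probes read 1 gene and had r = 0.84 over arrays, so they are not independent in these counts.

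**Figure D5:**
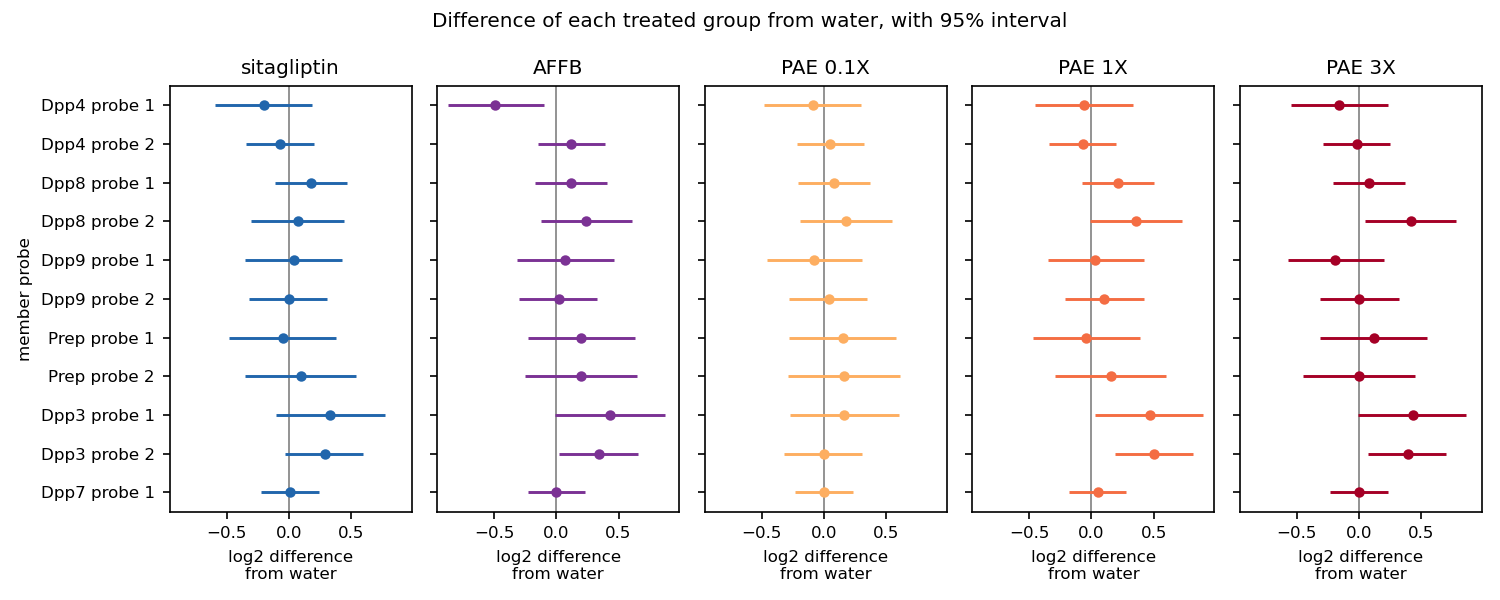
Difference in log2 signal between each treated group and water (points) with its 95% interval (lines) for the 11 tested member probes, 1 panel per treatment. The intervals of Dpp3 probe 2 lie above 0 for AFFB, PAE 1X and PAE 3X, as do those of Dpp3 probe 1 for PAE 1X and Dpp8 probe 2 for PAE 3X, that of Dpp4 probe 1 lies below 0 for AFFB (-0.87 to -0.10), and no member passed after adjustment.

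The mean of AFFB and the 3 PAE groups was compared with water as well. Here 0.0326% of all probes passed and 5.19% had an unadjusted p under 0.05, as did 3 members, Dpp3 probe 1 (0.37), Dpp3 probe 2 (0.31) and Dpp8 probe 2 (0.30), each with an adjusted p of 0.902. Sitagliptin against that mean, a comparison that leaves out the water arrays, gave member differences of -0.23 to 0.08. No member had an unadjusted p under 0.05, against 4.38% of all probes, and 0.0457% of all probes passed. Dpp4 probe 1 differed by 0.00 there (95% interval -0.31 to 0.31).

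Over water and the 3 PAE doses, scored 0 to 3, the steepest member slope was that of Dpp3 probe 2, 0.17 log2 units per step (SE 0.05, 95% interval 0.07 to 0.27, unadjusted p = 0.00213, adjusted p = 0.281 in limma). Dpp3 probe 1 followed at 0.16 (adjusted p = 0.649) and Dpp8 probe 2 at 0.14 (adjusted p = 0.600). These 3 were the members with an unadjusted p under 0.05, a rule that 6.88% of all probes met, and 0.157% of all probes passed. The Dpp3 means did not rise at every step. From water to PAE 3X they were 7.19, 7.19, 7.70 and 7.58 on probe 2 and 8.96, 9.12, 9.42 and 9.38 on probe 1. The highest array on probe 2 was PAE 1X 2, far out on the first component. With median scaling the Dpp3 slopes were 0.30 and 0.29 and the Dpp8 slope 0.24. That scaling also moved the median slope over all kept probes to 0.06, with 79.5% of them positive. Over the settings run, the lowest slopes were 0.13 for Dpp3 probe 1, 0.11 for Dpp3 probe 2 and 0.06 for Dpp8 probe 2. Without the 5 arrays of high clock output, which leaves only PAE 3X 1 and PAE 3X 4 at the highest dose, the Dpp3 probe 1 slope was 0.25. In limma's moderated F test over all treatments together, Dpp3 probe 2 was the 1 member with an unadjusted p under 0.05, a rule that 4.31% of all probes met, and 0.104% of all probes passed. Its adjusted p was 0.870.

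Genes that make, receive or share substrates with these peptidases were read from 5 lists, of which 47 genes had a kept probe. None of their 62 kept probes passed in any comparison. Under sitagliptin 22 of the 47 were higher and 25 lower than in water, with a median of -0.03 beside 0.01 over all probes, and 2 had an unadjusted p under 0.05, against 2.74% of all probes.

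Of the incretin hormone list, 4 of 13 genes on the array were kept. Gcg, the source of glucagon and of GLP-1, was at 10.28 ± 1.61 in water (9.26 to 12.68) and 10.40 ± 1.15 under sitagliptin. The difference of 0.12 had an SE of 0.83, beside an alpha cell marker mean, itself made of Gcg and Ttr, that ran from -1.65 to 1.76 over arrays. Its highest value was on water 4, which also had the highest Gcg signal of its group, and without that array the Gcg difference was 0.92. Leaving out 1 array at a time turned its direction in 5 cases, with -0.30 without sitagliptin 4. Cpe, a carboxypeptidase that trims prohormones, differed by -0.49 (SE 0.69), by 0.06 without water 4 and by -0.01 without sitagliptin 3. Gip was detected on at most 1 array of each group.

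Downstream of the receptors, 16 of 28 genes were kept, with 5 higher and 11 lower under sitagliptin and a median of -0.14, where 51.3% of all probes were higher. Prkar1a, a regulatory subunit of protein kinase A, was at 7.99 ± 0.11 in water and 7.65 ± 0.12 under sitagliptin. The 4 sitagliptin values, from 7.55 to 7.82, all lie below the 4 water values, from 7.86 to 8.13, a lack of overlap that 2.17% of all probes showed. The difference was -0.34 (SE 0.12, 95% interval -0.59 to -0.09, unadjusted p = 0.00887, adjusted p = 1.00 in limma). Arrb1, which encodes beta-arrestin 1, differed by 0.33 (SE 0.19), and Cacna1d, an L-type calcium channel of beta cells, by -0.31 (SE 0.18). In PAE 3X, Cacna1d was at 5.86 ± 0.15 (5.67 to 6.04) against 6.51 ± 0.15 in water (6.39 to 6.72). That difference, -0.65, had an adjusted p of 0.390 in limma. AFFB, at 6.02 ± 0.13 (5.92 to 6.19), also lay wholly below water. Over all probes 4.68% were free of overlap in PAE 3X and 3.60% in AFFB. The Cacna1d means of PAE 0.1X and PAE 1X, both 6.10, and of sitagliptin, 6.20, were below water too. All these comparisons share the water arrays. The beta cell marker mean was -0.29 in PAE 3X, 0.01 in AFFB and 0.06 in water, and its part in the Cacna1d differences was not tested.

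Among 8 kept substrates and partners of DPP4, Ppy, for pancreatic polypeptide, was at 4.89 ± 0.92 in water, with 1 array detected. Under sitagliptin it was at 5.47 ± 0.31, with 4 detected, and in PAE 3X at 5.69 ± 0.99, with 4 detected. Sitagliptin differed from water by 0.58 (SE 0.42), and by 1.05 without water 4. Most water arrays did not detect Ppy, so the size of either difference is uncertain. Cav1, for caveolin 1, differed by -0.39 (SE 0.33) and Igf2r by -0.06 (SE 0.16). In AFFB all 8 were lower than in water, with a median of -0.34, where 50.6% of all probes were higher. Of these 8 genes, 1 (Cav1) had an unadjusted p under 0.05, against 5.03% of all probes, and none passed. The alpha cell, endothelial and stellate marker means were lower in AFFB too, at -0.23 against 0.24 in water, -0.18 against 0.11 and -0.09 against 0.12. The single kept T cell marker and the erythroid mean were higher, at 0.28 against -0.14 and 0.10 against -0.33. The part of these cell types in this count was not tested.

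Of 12 other peptidases that act at amino ends or at proline, 6 were higher and 6 lower under sitagliptin. Lap3, a leucine aminopeptidase, was at 4.76 ± 0.22 in water, with 3 arrays detected, and at 4.40 ± 0.21 under sitagliptin, with 1. The difference was -0.35 (SE 0.13, unadjusted p = 0.0149, adjusted p = 1.00 in limma). The Lap3 means of the other treated groups were also below water, from 4.27 to 4.46, with at most 1 array detected in each, and all these comparisons share the water arrays. Sitagliptin differed from the mean of the berry groups by 0.02 (95% interval -0.20 to 0.24) for Lap3. Pepd, the prolidase gene, differed by 0.20 (SE 0.15) and Xpnpep1, an aminopeptidase that releases a residue before proline, by 0.17 (SE 0.17). Of 7 peptidases akin to neprilysin or known to degrade hormones, 4 were higher and 3 lower. Ide, the insulin-degrading enzyme, differed by 0.38 (SE 0.27) and Thop1 by 0.19 (SE 0.23). Phex was detected on 2 water arrays and on no sitagliptin array, so no difference is given for it.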

How the data were processed

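Pancreas RNA was measured on single-colour Illumina arrays. Per the file headers, the deposited signal table pairs a mean bead intensity, not normalized, with a detection p-value. The series also has deposited log2 values. The submitters' processing notes name R 3.1.2 and limma 3.22.1. Its log2 values differed from those computed here by at most 0.104. Array chips and scanner settings are not given in the sources used here, so no batch could be entered. Those sources name no genome build for the array either. Coordinates are those of the RefSeq promoter windows only.

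Intensities were background-corrected from the detection p-values, quantile normalized and taken to log2 by neqc (limma 3.58.1, R 4.3.3; offset 16), so differences of dim probes are understated. All 24 arrays entered 1 limma fit with group means, moderated by eBayes. P-values were two-sided and Benjamini-Hochberg adjusted over all 15328 kept probes of a comparison, with an adjusted p under 0.05 as passing. Errors of differences are standard errors of that fit, and intervals are at 95%. Precision is limited by having 4 arrays in a group. Relations over arrays used 100000 resamples. List genes were read from the kept probe with the highest mean. Of the kept probes, 13086 had 1 symbol, 8 several and 2234 none. The script for the fit was tested on simulated data.

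The members and lists were chosen with earlier results of these data known. All members were named, and from each pathway list the 3 genes with the smallest unadjusted p under sitagliptin. The 5 genes most like Dpp4 were named by Pearson r. Probe annotation held no probe sequences, and probes of a gene are reported separately. Alternatives changed the background correction, offset, scaling, filter, variance model and arrays, added a replicate block, or used the deposited log2 values. Deviations of same-numbered arrays of different groups had correlations from -0.18 to 0.31, over 0.1 in 5 of 20 pairs. The highest, 0.31, was reached by PAE 1X 4 and by sitagliptin 4, both among the 5 arrays of high clock output. The promoter window of 1 member is not reported here.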

Additional observations from a re-analysis of the deposited data

Results flagged for a closer look

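In 6 of 66 group and probe combinations, 1 array stood apart from the other 3 of its group by more than a 95% limit for 4 values. About 1 in 20 such combinations is marked by chance. Dpp4 probe 2 read 4.37 on sitagliptin 3, with the others between 4.55 and 4.57. Dpp8 probe 2 read 5.95 on PAE 3X 2, with the others at 6.27 to 6.28. Dpp9 probe 1 read 6.11 on PAE 0.1X 2, with the others from 6.44 to 6.47. Dpp9 probe 2 read 6.54 on water 2, with the others from 6.15 to 6.17. Prep probe 1 read 5.39 on sitagliptin 4, with the others from 6.07 to 6.14. Dpp3 probe 1 read 9.91 on AFFB 2, an array far out on the first component, with the others from 9.17 to 9.26.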

How the results depend on the processing

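No member probe passed in the 8 comparisons of differences and slopes under any of the 35 settings run, or in the test over all treatments under the 34 settings in which it was run (it was not run on only the groups compared). The smallest adjusted p of the differences and slopes was 0.0827, for the Dpp3 probe 2 slope over PAE dose with median scaling. The Dpp4 probes were absent where detection on all 24 arrays was required. Of 88 member differences, none of which passed, 32 changed sign under at least 1 setting. The named pathway genes were run under the same settings after the data were seen, and none passed (smallest adjusted p 0.0690, for Cacna1d in PAE 3X without the 3 far arrays). The relation of Dpp4 probe 1 with duct markers lost its call without the 2 farthest arrays (r = 0.43, adjusted p = 0.0931), and leaving out each array in turn gave r from 0.48 to 0.58. Dim probes moved with the background step. The AFFB difference of Dpp4 probe 1, -0.49, was -0.22 with an offset of 50 and -0.14 without background correction, as a larger constant compresses log2 differences. With the replicate block, Dpp4 probe 1 differed by -0.20 under sitagliptin and Dpp3 probe 2 by 0.50 in PAE 1X, and 0 members passed. In the labels, same-numbered arrays share only a number. Over all probes, the count passing ran from 0 to 8 for PAE 1X, 0 to 19 for PAE 3X, 0 to 7 for the berry mean, 0 to 10 for sitagliptin against it, 2 to 85 for the dose slope and 1 to 22 for any treatment, against 1, 7, 5, 7, 24 and 16 in the main setting. Signals of Fap, Mme, Glp1r and Gipr near background limit what can be said of them.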
